A study of Mus musculus with 4 samples.

Results

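The genes described here are Trp53, which encodes the tumour suppressor p53, and 33 genes placed in its pathway, mostly transcriptional targets, taken by gene symbol from a list of 34 names. Of these, 32 were measured among the 25050 genes of the table. Pmaip1 and Perp were not analysed here. All 32 reached the minimum for testing, a mean of 10 normalised reads over the libraries, and so did 15540 genes in all. RNA was sequenced from HT-22 cells, a mouse hippocampal neuronal line, at passage 21 to 24, in 2 libraries of cells that overexpress Nsmce1 and 2 libraries of wild type cells. Nsmce1 encodes a RING finger protein of SMC5/6, a complex of the cohesin family needed for DNA repair. The series describes the first group as induced for Nsmce1 and the second as uninduced controls, while the sample labels name them by genotype, Nsmce1 overexpression and wild type, and name no inducer, promoter or clone. The labels do not say whether replicate libraries were separate cultures, and p-values therefore cover the variation among these libraries, which may be technical.

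The p53 protein is a transcription factor that is kept scarce by the ubiquitin ligase Mdm2 and its relative Mdm4, and that accumulates when kinases respond to DNA damage or other stress. It binds response elements made of a pair of half-sites and switches on genes that stop the cell cycle, repair DNA, restrain growth or start cell death. Mdm2 is itself such a target, which closes a feedback loop. HT-22 descends from HT4, a line immortalised with a temperature-sensitive large T antigen of the virus SV40, a protein known to bind p53. The activity of p53 protein was not measured here, and the part of the antigen in these values was not tested.

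The list can first be read in sequence. RefSeq promoter windows (build GRCm38.p6), which run from 250 bases before to 50 bases after a transcript start, were matched by symbol for 26 of the 34 members, with 33 windows in all. They were searched for the p53 half-site, a motif that equals its own reverse complement, so that a match covers both strands. A half-site stood in 12 of the 33 member windows (36.4%), against 2745 of 32851 windows of all genes (8.36%). The 2 windows of Aen overlap and share a half-site. A different and rarer pattern was the letters CATG in 2 copies with 6 bases of any kind between them, which also reads the same on both strands. It does not require a half-site, and stood in 1 member window, of Cdkn1a, and in 0.712% of all windows. A match is a description of the letters and not a measured binding site.

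A window of Cdkn1a and that of Mdm2 are shown whole because these genes, the cell cycle inhibitor p21 and the feedback ligase, are the classical outputs of p53, and 30 bases around the site are shown for the other members with a match. Capitals mark the half-site. Cdkn1a has 2 windows, of which the upstream one (chr17:29090729-29091028, plus strand) is shown, and its second half-site overlaps the paired CATG cores. The other Cdkn1a window (chr17:29093519-29093818) holds 0 half-sites. The Mdm2 window (chr10:117710709-117711008, minus strand) holds a single half-site.
Cdkn1a: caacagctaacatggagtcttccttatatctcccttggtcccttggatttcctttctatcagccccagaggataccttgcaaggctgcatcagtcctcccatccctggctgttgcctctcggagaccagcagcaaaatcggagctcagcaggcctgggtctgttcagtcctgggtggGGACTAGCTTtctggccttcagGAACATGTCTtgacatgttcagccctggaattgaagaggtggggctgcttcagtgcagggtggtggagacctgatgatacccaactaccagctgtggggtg
Mdm2: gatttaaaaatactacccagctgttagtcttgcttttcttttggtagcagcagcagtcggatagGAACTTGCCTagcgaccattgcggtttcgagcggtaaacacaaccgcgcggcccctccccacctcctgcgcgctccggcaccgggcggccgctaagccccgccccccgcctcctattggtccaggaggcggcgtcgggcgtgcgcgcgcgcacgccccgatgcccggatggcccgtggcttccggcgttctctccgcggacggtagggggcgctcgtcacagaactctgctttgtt
Trp53: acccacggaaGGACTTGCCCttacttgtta
Ccng1: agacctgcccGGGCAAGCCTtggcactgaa
Ckap2: ctgtgtctgaAGACATGTCCtgacttgtca
Gadd45a: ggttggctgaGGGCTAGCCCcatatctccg
Bax: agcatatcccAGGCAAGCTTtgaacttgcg
Ei24: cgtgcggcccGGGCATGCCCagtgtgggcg
Aen: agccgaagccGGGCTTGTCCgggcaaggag
Sesn1: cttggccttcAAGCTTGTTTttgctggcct
Polk: catgtagcttGAACTAGCCTcaaacttatt

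Nsmce1 itself, the overexpressed gene, had 17851 and 16525 normalised reads in the overexpressing libraries, against 1108 and 1206 in the wild type libraries, a log2 fold change of 3.89 with an SE of 0.0856 (limma adjusted p = 9.07e-05). Whole reads, worked out from the values and summed over measured genes, came to 32516117 and 44602989 (overexpressing) and 25787452 and 31010351 (wild type). Across all tested genes 16 were higher and 14 lower at a limma adjusted p under 0.05. The genes of chromosomes 10 and 16 were shifted upwards as a whole, with median log2 fold changes of 0.14 and 0.17. As a check of the label, 4 of 12 neuronal markers passed the minimum (Tubb3, Eno2, Syn1 and Camk2a), 4 lay below it and 4 were not analysed here. Those 4 that passed had means from 57.4 normalised reads for Camk2a to 4434 for Eno2. Astrocyte markers passed in 2 of 5, oligodendrocyte in 3 of 5, microglia and leukocyte in 3 of 6, and endothelial in 3 of 5. Fibroblast and mesenchymal markers passed in 9 of 10, with means from 864 for Dcn to 176340 for Col1a2. Of these 9 mesenchymal markers, 3 were above 0 and 6 below, with log2 fold changes from -0.37 to 0.08, and of the 4 neuronal ones 1 was above 0 and 3 below.

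None of the 32 members was called higher or lower (limma on the log2 values with Benjamini-Hochberg adjustment over all tested genes, smallest adjusted p = 0.445). The background for such calls was low, at 0.193% of the genes tested. Most members nevertheless had a log2 fold change above 0, 28 of 32 (87.5%), against 51.3% of all tested genes. The median log2 fold change of the members was 0.081, against 0.0054 over all tested genes. Both overexpressing libraries lay above the wild type mean in 18 of 32 members (56.25%), against 34.2% of all tested genes. Both lay below it in 3 members. The values of the 2 groups did not overlap in 11 members that were higher and in 1 that was lower. Over all tested genes, the groups did not overlap upwards in 20.8% and downwards in 18.3%. Trp53inp1, Cdkn1a, Mdm2 and Gadd45b had unadjusted limma p-values below 0.05, all with higher values in overexpressing cells. The background was 4.32% of genes in that direction and 3.6% in the other. On chromosome 10, where Mdm2 and Gadd45b lie, 17.0% of tested genes had such a p upwards. With voom on the recovered reads 0 members were called as well, and 4 had an unadjusted p under 0.05. In bulk RNA of this kind, fewer cells of a type and less RNA per cell cannot be told apart. The members were chosen with results of these data known, so these counts describe the list and do not test it.

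The differences were small beside a doubling. Among the 11 members whose groups did not overlap upwards, the ratio of means lay between 1.03 and 1.25. The 95% intervals from limma cover the variation among these libraries, which may be technical, and are not adjusted for the number of genes. They lay below a 2-fold rise in 31 of 32 members and below a 1.5-fold rise in 28. The exception at 2-fold was Eda2r, with an upper bound of 1.06 on the log2 scale. A 2-fold fall lay outside the interval of all 32 tested members, and a 1.5-fold fall outside that of 31, the exception being Gadd45a with a lower bound of -0.65. The median SE of a member's log2 fold change was 0.120, against 0.133 over all tested genes.

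**Figure D1:**
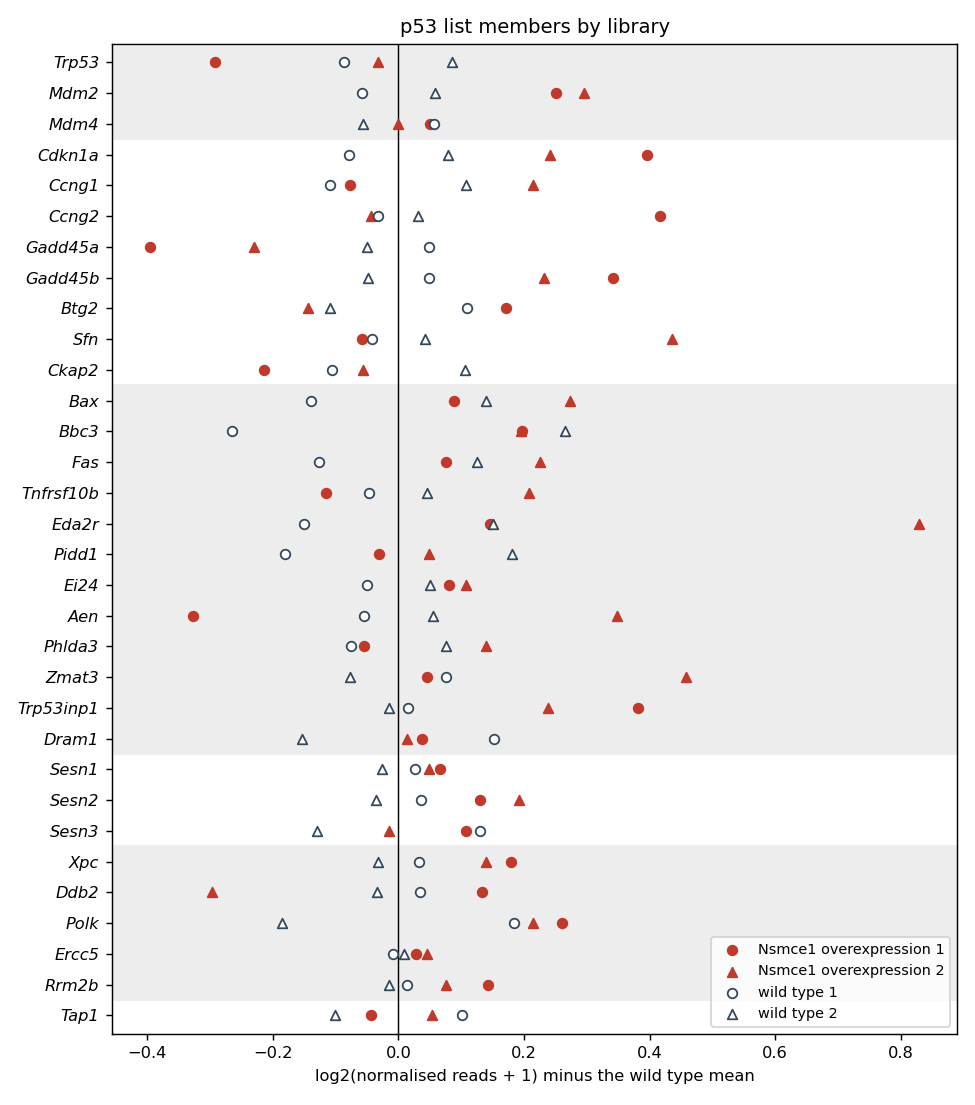
Each row is a member, in the order of roles used in the text (shaded bands), and the x axis gives the log2 value of a library minus the mean of the wild type libraries. Filled red symbols are overexpressing libraries and open symbols wild type libraries. In 11 members, among them Cdkn1a, Mdm2, Gadd45b and Trp53inp1, both overexpressing libraries lie above both wild type libraries. In 1 member, Gadd45a, both lie below. Eda2r and Aen show the widest gaps between overexpressing libraries.

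Trp53, the gene of the transcription factor itself, had 4163 and 4982 normalised reads in the overexpressing libraries, against 4801 and 5408 in the wild type libraries. The groups overlapped, since the second overexpressing library lay between the wild type ones. The log2 fold change was -0.16 (SE 0.114, 95% interval -0.44 to 0.12, limma adjusted p = 0.761).

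Mdm2, the ligase that marks p53 for degradation, had 2980 and 3075 normalised reads in the overexpressing libraries, against 2406 and 2609 in the wild type libraries. Both overexpressing libraries lay above both wild type libraries, 1.21-fold by the means. The log2 fold change was 0.27 (SE 0.0838, limma adjusted p = 0.489). Mdm2 lies on chromosome 10, and after subtraction of chromosome medians its log2 fold change was 0.13 (limma adjusted p = 0.802). Among the 40 nearest tested genes of at least 100 normalised reads, 20 on either side, 36 were above 0, their median was 0.19, and 32 lay below Mdm2. Mdm4, which binds p53 and masks its activation domain, had 5084 and 4911 normalised reads in overexpressing cells and 5108 and 4721 in wild type cells. Its groups overlapped, and its log2 fold change of 0.03 had an interval of -0.17 to 0.22 (limma adjusted p = 0.964).

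**Figure D2:**
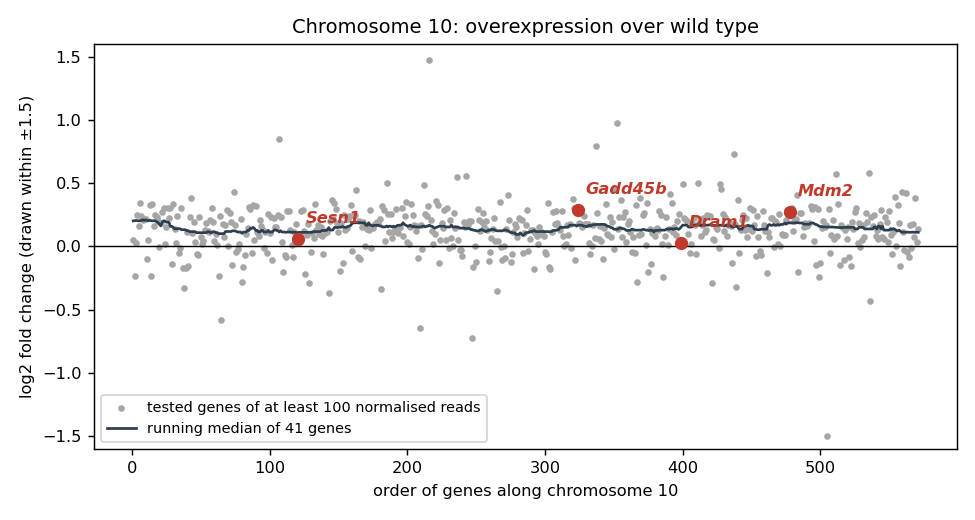
Grey points are the 571 genes of chromosome 10 with at least 100 normalised reads in the order of their starts, the y axis is their log2 fold change, overexpression over wild type, and the line is a running median. The line stays above 0 along the whole chromosome, and of the 4 labelled members Gadd45b and Mdm2 lie above it and Sesn1 and Dram1 below it.

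Of the 8 cell cycle members, 6 had log2 fold changes above 0, with a median of 0.13. Cdkn1a, which encodes the cyclin-dependent kinase inhibitor p21, had 4994 and 4485 normalised reads in the overexpressing libraries, against 3594 and 4007 in the wild type libraries. All overexpressing values were above all wild type values, and the means, 4740 ± 360 and 3801 ± 292 (SD, n = 2 each), differed 1.25-fold. The log2 fold change was 0.32 (SE 0.0956, 95% interval 0.086 to 0.55, limma adjusted p = 0.471). Cdkn1a lies on chromosome 17, whose median was -0.026, and it stood above 39 of its 40 nearest genes. With chromosome medians removed it was at 0.34. Its upstream window, shown above, holds the paired CATG cores, and its other window does not.

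The paralogues Gadd45a and Gadd45b, stress-induced regulators of growth arrest and MAP kinase signalling, had values that lay apart in opposite directions. Gadd45b had 714 and 661 normalised reads in overexpressing cells and 582 and 544 in wild type cells. Its log2 fold change was 0.29 (SE 0.113, limma adjusted p = 0.611). Gadd45a had 265 and 297 in overexpressing cells and 361 and 337 in wild type cells. Its log2 fold change was -0.31 (SE 0.140, limma adjusted p = 0.659), and it was the 1 member whose groups did not overlap downwards. Gadd45b lies on chromosome 10 and stood at 0.15 with chromosome medians removed, while Gadd45a, on chromosome 6, stood at -0.31. Exons of Gadd45a overlap those of E230016M11Rik on the opposite strand, which stood at -0.03. Whether strand was used in counting is not known. The difference between the paralogues was not tested.

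The other cell cycle members overlapped between the groups. Ccng1, or cyclin G1, a p53 target that acts back on Mdm2, had 6495 and 7950 normalised reads in overexpressing cells and 6359 and 7389 in wild type cells. Its log2 fold change of 0.07 stood above 39 of its 40 nearest genes. Those 40 genes had a median of -0.17, with 2 above 0, while the median of the whole chromosome 11 was -0.032. Ccng2, the related cyclin G2, had 3145 and 2287 in overexpressing cells and 2305 and 2409 in wild type cells, so that a single overexpressing library carried its log2 fold change of 0.19. Btg2, an antiproliferative factor, was at 0.01. Sfn, an adaptor protein that holds mitotic kinases in the cytoplasm, was the member with the fewest reads, at 51 and 72.3 normalised reads in overexpressing cells and 51.6 and 54.8 in wild type cells. Ckap2, a spindle protein, stood at -0.14, with 3944 and 4397 in overexpressing cells and 4249 and 4925 in wild type cells.

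All 12 analysed genes of death receptors and apoptosis had log2 fold changes above 0, against 51.3% of all tested genes. They ran from 0.01 to 0.49, with a median of 0.12. Both overexpressing libraries lay above the wild type mean in 8 of the 12, and both below it in 0. The groups did not overlap in 2 of the 12 (16.7%), near the 20.8% of all tested genes that were apart upwards. One was Trp53inp1, a stress protein that acts in autophagy and apoptosis. It had 2847 and 2577 normalised reads in the overexpressing libraries, against 2208 and 2161 in the wild type libraries. Both overexpressing values were above the wild type pair, which lay close together. The log2 fold change was 0.31 (SE 0.0879, limma adjusted p = 0.445), the smallest p of the list and the 420th smallest of all tested genes, and it stood above 38 of its 39 nearest genes on chromosome 4. The other was Ei24, an endoplasmic reticulum protein linked to autophagy, with 2000.0 and 2039 in overexpressing cells and 1827 and 1958 in wild type cells (log2 fold change 0.09).

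Eda2r, a receptor for the tumour necrosis factor family ligand ectodysplasin A2, had the largest log2 fold change of the list, 0.49, and an SE of 0.233 (limma adjusted p = 0.675). It had 901 and 1447 normalised reads in overexpressing cells and 733 and 904 in wild type cells. The first overexpressing library thus lay within the wild type range and the second far above it. Without the first overexpressing library the log2 fold change was 0.83 and without the second it was 0.15. Zmat3, a zinc finger RNA-binding protein, and Aen, a nuclease, showed the same library as the highest. Zmat3 had 3254 and 4332 in overexpressing cells and 3326 and 2991 in wild type cells, and Aen had 759 and 1213 in overexpressing cells and 917 and 989 in wild type cells. Over all 32 members, the second overexpressing library was above the first in 18, against 50.4% of all tested genes.

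The mitochondrial pore former Bax had 2371 and 2694 normalised reads in overexpressing cells and 2023 and 2456 in wild type cells, a log2 fold change of 0.18. Bbc3, or PUMA, a BH3-only activator of Bax, had 423 in both overexpressing libraries and 307 and 443 in wild type cells, a log2 fold change of 0.20. In both genes the wild type libraries differed more from each other than the group means did, and the groups overlapped. The death receptor Fas had 748 and 830.0 in overexpressing cells and 650.1 and 774 in wild type cells. Tnfrsf10b, the receptor for TRAIL, stood at 0.05, Phlda3, an inhibitor of Akt, at 0.04, Dram1, a lysosomal autophagy protein, at 0.03, and Pidd1, a scaffold for caspase activation, at 0.01. Dram1, on chromosome 10, was above 6 of its 40 nearest genes and stood at -0.11 with chromosome medians removed.

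The sestrins restrain mTORC1 when amino acids are short or DNA is damaged. Sesn2, a leucine sensor, had 1437 and 1499 normalised reads in the overexpressing libraries, against 1346 and 1281 in the wild type libraries. The groups did not overlap (log2 fold change 0.16, SE 0.0896, limma adjusted p = 0.718). Sesn1 had 1583 and 1564 in overexpressing cells and 1539 and 1485 in wild type cells. These did not overlap either, but Sesn1 lies on chromosome 10 and stood at -0.083 with chromosome medians removed. Sesn3 stood at 0.05 with overlapping groups. Over all tested genes, the groups did not overlap upwards in 20.8%.

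Of the 5 DNA repair genes, 4 had groups that did not overlap, each with higher values in overexpressing cells, against 20.8% of all tested genes in that direction. Xpc, which finds helix-distorting damage for nucleotide excision repair, had 1150.0 and 1119 normalised reads in the overexpressing libraries, against 1039 and 993 in the wild type libraries (log2 fold change 0.16, SE 0.0931, limma adjusted p = 0.723). Polk, a translesion DNA polymerase, had 1182 and 1145 in overexpressing cells and 1122 and 868 in wild type cells (log2 fold change 0.24). Rrm2b, a p53-inducible ribonucleotide reductase subunit, stood at 0.11, and Ercc5, the endonuclease XPG, at 0.04. Ercc5 shows how small a separated difference could be, with means of 1305 ± 11.5 in overexpressing cells and 1272 ± 10.3 in wild type cells (SD, n = 2 each). Ddb2, which recognises ultraviolet damage, had 493 and 366 in overexpressing cells and 460.2 and 439 in wild type cells (log2 fold change -0.08), and its exons overlap Acp2 on the opposite strand, at -0.04. Tap1, the peptide transporter of antigen presentation, had 780.0 and 835 in overexpressing cells and 863 and 750 in wild type cells. Its log2 fold change was 0.01 (SE 0.117, limma adjusted p = 0.997). Exons of Tap1 share 212 bases with Psmb9 on the opposite strand, which had 191 and 167.9 in overexpressing cells and 285.5 and 201.2 in wild type cells (log2 fold change -0.42, limma adjusted p = 0.698).

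**Figure D3:**
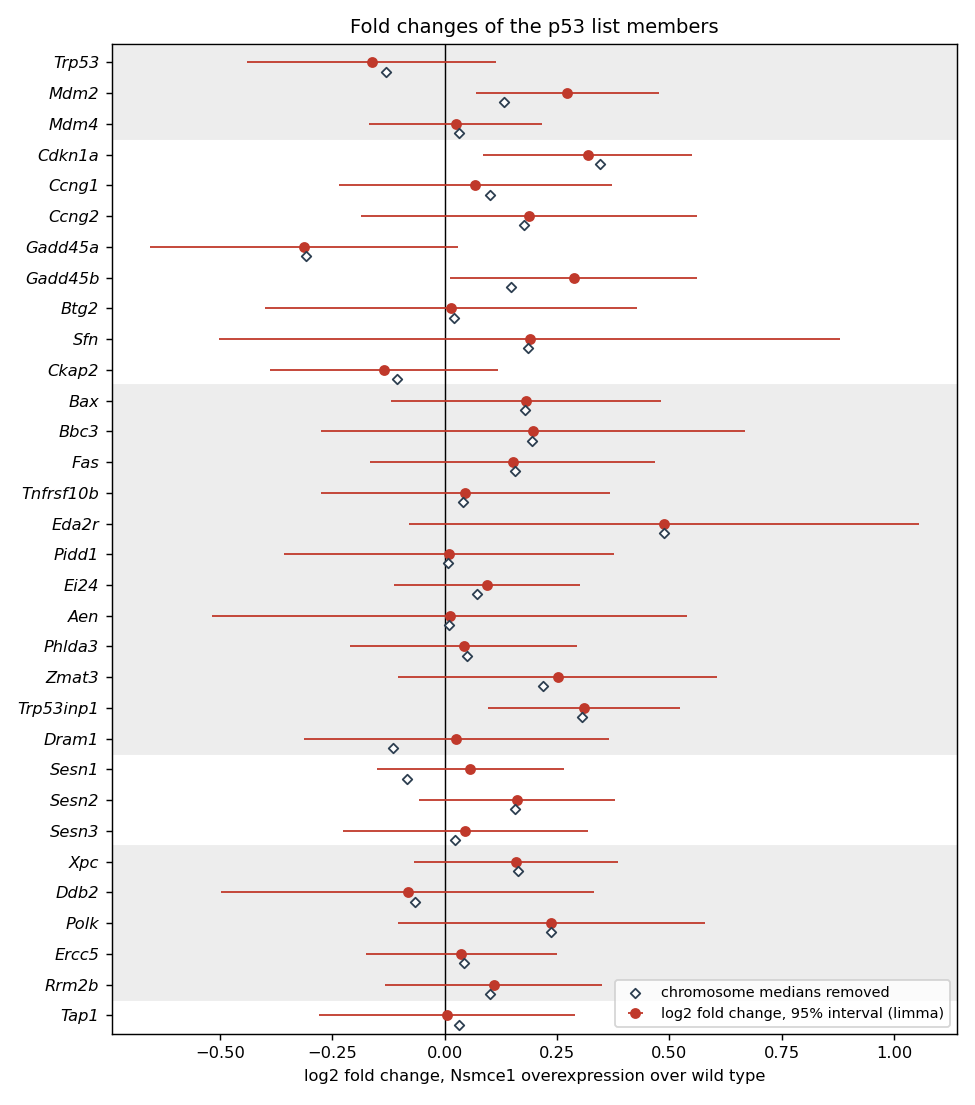
Red points give each member's log2 fold change, overexpression over wild type, with its 95% interval from limma. Open diamonds give the value with chromosome medians removed. Intervals of 28 of 32 members include 0, and the diamonds of Mdm2, Gadd45b, Sesn1 and Dram1, the members on chromosome 10, are moved to the left.

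The 4 members on chromosome 10 were all above 0, as were 564 of the 752 tested genes of that chromosome. Without them 24 of the other 28 members were above 0 (85.7%), against 49.3% of genes outside chromosomes 10 and 16, and their median stayed at 0.081. Groups did not overlap upwards in 8 of these 28 (28.6%), against 18.5% of genes outside the 2 chromosomes. An unadjusted limma p under 0.05 with higher values was found in 2 of the 28 (7.14%), against 3.03% of those genes. With chromosome medians removed, 26 of 32 members were above 0, with a median of 0.087, and Cdkn1a and Trp53inp1 kept an unadjusted limma p below 0.05, as 3.09% of all tested genes did upwards. Leaving out 1 library moved the count above 0 to between 22 and 25. The median was 0.14 without the first overexpressing library and 0.12 without the second wild type library, and 0.078 and 0.095 without the second overexpressing and the first wild type library.

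Levels were compared per length. In normalised reads per kilobase of exon, the median over members was 262, against 182 over 15503 tested genes with an annotated length, and 22 of 32 members were above 182. Ccng1 was the most abundant, with 2056 in overexpressing cells and 1957 in wild type cells, followed by Phlda3, Bax, Ckap2, Cdkn1a and Trp53. The level of Trp53 was 1130 per kilobase in overexpressing cells and 1262 in wild type cells. Cdkn1a, at 1334 in overexpressing cells and 1070 in wild type cells, stood above Trp53 in overexpressing cells and below it in wild type cells, from differences that did not pass the test. Mdm2, next in order, stood at 596 in overexpressing cells and 493 in wild type cells, and Sfn was the lowest, at 38.2 in overexpressing cells and 33.0 in wild type cells.

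**Figure D4:**
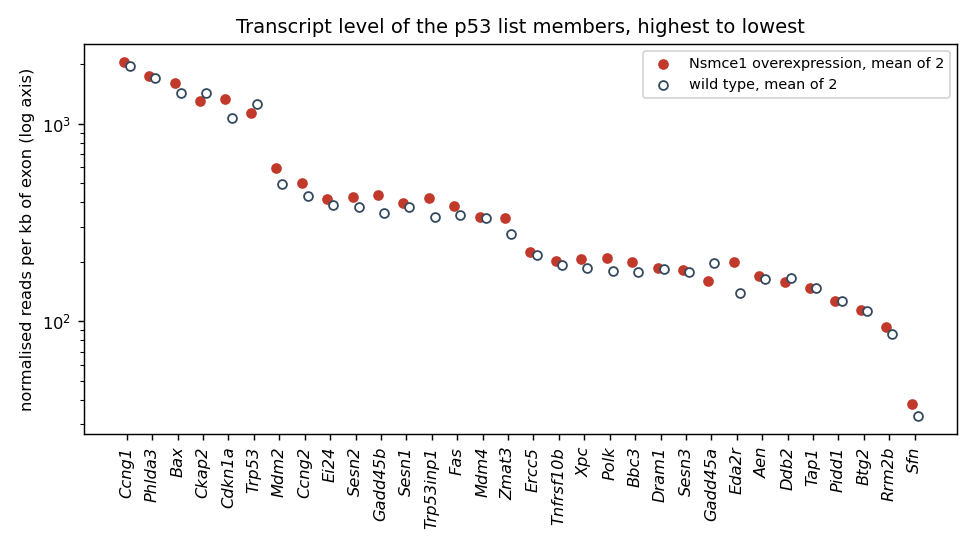
The y axis gives normalised reads per kilobase of exon on a log axis, as the mean of 2 libraries, for overexpressing cells (filled) and wild type cells (open), with members ordered by their overall mean. The group means lie close together for every member beside a range between members from 35.6 for Sfn to 2007 for Ccng1.

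Fold changes were also read by promoter window. Of the 11 with a half-site, 8 were above 0, with a median log2 fold change of 0.07 and a range of -0.31 to 0.32. Of the 15 with windows but no such letters, all 15 were above 0, with a median of 0.05 and a range of 0.01 to 0.49. The first set holds Cdkn1a and Mdm2 and also Gadd45a, Trp53 and Ckap2, 3 of the 4 members below 0. The other member below 0, Ddb2, had no matched window. Trp53inp1, Zmat3, Xpc, Rrm2b and Tnfrsf10b had none either, so these members enter neither median. No difference between the sets was tested, and response elements outside these windows were not searched.

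Genes that act around p53 were described from further lists. Among 10 kinases upstream of p53, 9 were above 0, against 51.3% of all tested genes, with a median log2 fold change of 0.10. None was called by limma, and 2 had an unadjusted p under 0.05, both higher. Over all tested genes 4.32% had such a p upwards, and of those on chromosome 10, where Stk11 lies, 17.0%. Prkdc, the DNA-dependent protein kinase, had 2133 and 1961 normalised reads in overexpressing cells and 1706 and 1502 in wild type cells (log2 fold change 0.35, limma adjusted p = 0.458). It lies on chromosome 16 and stood at 0.18 with chromosome medians removed. Stk11, on chromosome 10, was at 0.29 and after the same step at 0.15. The damage kinase Atr was at 0.22 and the stress kinase Mapk14 at 0.13.

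Of 17 tested regulators of p53, 9 were above 0 (52.9%) and 8 below, near the 51.3% of all tested genes above 0. None was called by limma, and 3 had an unadjusted p under 0.05, of which Usp7 was higher and Rchy1 and Rpl11 lower. Over all tested genes, 4.32% had such a p upwards and 3.6% downwards. The value farthest from 0 was that of Rchy1, or Pirh2, a RING ubiquitin ligase that binds p53 and is itself a p53 target. Rchy1 had 794 and 856 normalised reads in the overexpressing libraries, against 1402 and 1499.7 in the wild type libraries. The groups were far apart, at 0.569 of the wild type mean, and the log2 fold change of -0.81 (SE 0.0993, 95% interval -1.06 to -0.57) just missed the threshold (limma adjusted p = 0.0587). Its adjusted p was 0.0242 with robust variances and 0.0344 with the replicate number as a block, and lay between 0.0554 and 0.324 under the other settings tried at the same threshold. Exons of Rchy1 overlap Thap6 on the opposite strand, which stood at -0.06. The deubiquitinase Usp7, on chromosome 16, was at 0.27 and at 0.10 with chromosome medians removed. The ribosomal proteins Rpl11 and Rpl23, which can bind and inhibit Mdm2, were at -0.30 and -0.16. Cdkn2a, the gene of the Mdm2 inhibitor ARF, was not analysed here.

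Among 33 further p53 targets with tested values, 21 were above 0 (63.6%) and 12 below, with a median of 0.10. None was called by limma, and 5 had an unadjusted p under 0.05, with 4 higher and 1 lower, the RNA sensor gene Tlr3 (log2 fold change -0.41). Over all tested genes, 51.3% were above 0, and 4.32% had such a p upwards and 3.6% downwards. Nupr1, a stress-induced chromatin protein, had 860.0 and 753 normalised reads in overexpressing cells and 533 and 339 in wild type cells, a log2 fold change of 0.92 with an SE of 0.222 (limma adjusted p = 0.350). The wild type libraries differed widely, while both overexpressing values were above them. Bcl6, a transcriptional repressor on chromosome 16, was at 0.45, Apaf1, the core of the apoptosome, on chromosome 10, at 0.50, and Rps27l, a ribosomal protein paralogue, at 0.28. With chromosome medians removed Bcl6 stood at 0.28 and Apaf1 at 0.36. Of 30 cell cycle genes that p53 represses through p21 and the DREAM complex, 12 were above 0 and 18 below, with a median of -0.02, 0 called and 0 with an unadjusted limma p under 0.05. Their log2 fold changes lay between -0.31 for Foxm1, a mitotic transcription factor, and 0.10 for the cyclin Ccnb2. The mitotic kinase genes Aurkb and Cdk1 were at -0.14 and -0.09, and the kinesin Kif23 at 0.09. Cdk1 lies on chromosome 10 and stood at -0.24 with chromosome medians removed (limma adjusted p = 0.732).

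**Figure D5:**
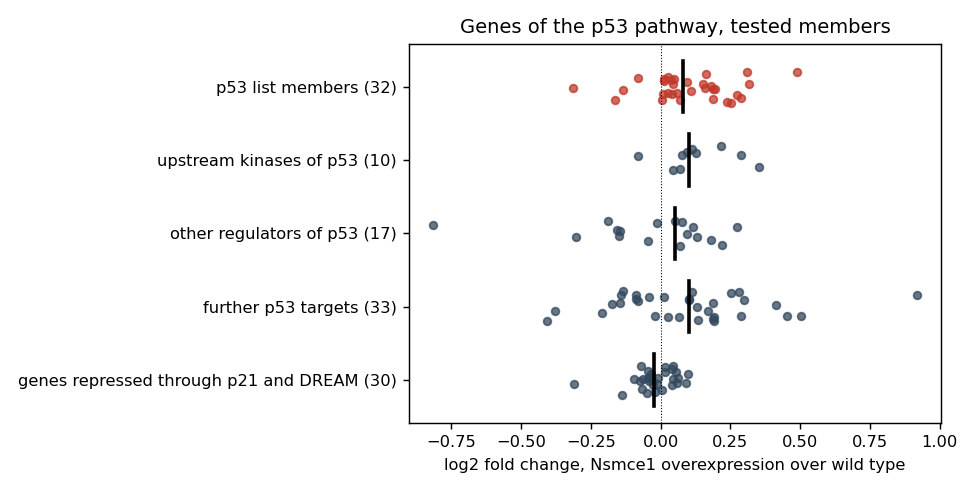
Each point is a tested gene, the x axis gives its log2 fold change, overexpression over wild type, and the bar marks the median of a list. Medians run from 0.05 to 0.10 for members, kinases, regulators and further targets and -0.02 for the repressed cell cycle genes, and Rchy1 and Nupr1 are the points farthest out.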

How the data were processed

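Total RNA of 4 HT-22 libraries was extracted with Trizol, made into libraries with a TruSeq kit and sequenced by BGISEQ-500 protocols, per the labels' protocols. HISAT and Cufflinks, with the build mm9, are named in the submitters' processing notes. The deposited table holds log2 values per gene, worked out from the values as the log2 of normalised reads plus 1: after undoing the log2, 100% of values were whole multiples of 1 step per library within 0.001 read. The counting step and its use of strand are not given in those sources.

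limma 3.58.1 (R 4.3.3) with a mean-variance trend was fitted to the log2 values of all 15540 genes with a mean of at least 10 normalised reads, with group as the only term. P-values are two-sided and Benjamini-Hochberg adjusted over these genes, with a threshold of 0.05. All fold changes are differences of log2(value + 1), which shrinks those of low genes. A single gene alone could reach an exact permutation p of 0.333 at best, so p-values rest on variances pooled over genes (6.11 total degrees of freedom). The steps were tested on simulated data with planted changes larger than that of any member. Whether changes as small as those of the members would be called was not tested.

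GENCODE M21 (GRCm38) gave chromosome, order and exon length for 15503 tested genes, and RefSeq the promoters. Since the notes name another build, no coordinates were combined. The members and lists were chosen with earlier results of these data known. Values in every library are given for Trp53, Mdm2, Mdm4 and Cdkn1a, for members with an unadjusted p under 0.1 or a log2 fold change of at least 0.5 in size, and for the member with the smallest p of each role. Values of other members that show how the libraries lie were added after seeing them. From other lists up to 4 genes with the smallest p are named, besides Ccnb2, which marks a range, and Tlr3, named after its value was seen as the 1 lower gene of a count.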

Additional observations from a re-analysis of the deposited data

How the results depend on the processing

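No member of the p53 list was called in any of the 17 alternatives set with the plan, which changed the pseudocount, the filter, the scaling, the variance model, the threshold or the chromosome medians, used voom on recovered reads, added the replicate block or left out a library. Of these alternatives, the threshold of 0.01 could call no member, since none passed 0.05 in the main test. The count of members with an unadjusted limma p under 0.05 lay between 1 and 5 in the settings that kept every library. The number of members above 0 was 22 to 28, and the median log2 fold change lay between 0.074 with quantile normalization and 0.14 without overexpression replicate 1, and from 0.078 upwards when a library was left out. Leaving out the chromosome 10 members, chosen after seeing the data, gave 24 and 0.081. The calls over all genes, 30 in the main test, were 11 at a threshold of 0.01, 72 with robust variances, 9 without a trend, 16 without a filter and 18 with quantile normalization, and they lay between 2 and 75 when a library was left out. Where a group is left with 1 library, it is assumed to vary like the other. Of the other genes of the pathway, 1 was called with robust variances and 1 with the block, Rchy1 in both.

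With the replicate number as a block 60 genes were called. The labels give same-numbered libraries nothing in common but the number. The correlation of their deviations over tested genes was 0.0068, which cannot show whether they shared a culture or a day. The block called no member.

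Of 544 member values, 520 kept their sign. This count includes settings that cannot change a log2 fold change. These are the stricter threshold, the filters, limma without trend or with robust variances, and the replicate block. All 24 reversals arose under the other settings. Btg2 was at -0.0023 with quantile normalization, and Dram1 and Sesn1 at -0.11 and -0.083 with chromosome medians removed. When a library was left out, the log2 fold change lay for Aen between -0.33 and 0.35, for Bbc3 between -0.068 and 0.46, for Btg2 between -0.14 and 0.17, for Ccng1 between -0.078 and 0.21, for Ccng2 between -0.043 and 0.42, for Ddb2 between -0.30 and 0.13, for Dram1 between -0.13 and 0.18. It lay for Mdm4 between -0.032 and 0.082, for Phlda3 between -0.055 and 0.14, for Pidd1 between -0.17 and 0.19, for Sesn3 between -0.084 and 0.18, for Sfn between -0.058 and 0.44, for Tap1 between -0.096 and 0.11, for Tnfrsf10b between -0.12 and 0.21. The cause of these reversals was not tested. The reads behind the members are many, with a median of 1184 normalised reads, and Sfn at 57.4 had the largest SE, 0.284.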
